A study of Mus musculus with 8 samples.

Results

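The crossover and mismatch repair genes described here are MutS and MutL homologs (Msh4, Msh5, Msh6 and Mlh3) and pro-crossover factors (Rnf212, Ccnb1ip1, Hfm1 and Tex11), which were chosen by gene symbol. Of these 8 members, 7 are among the 23235 gene symbols of the expression files, and Rnf212 was not listed under its symbol or its synonyms. The study asked how loss of CNOT4, a subunit of the CCR4-NOT deadenylase complex, alters the transcripts of male germ cells in meiosis. RNA-seq was performed on spermatocytes of C57BL/6 males, 6 weeks old, that were separated by flow cytometry on Hoechst and propidium iodide fluorescence. WT spermatocytes at the leptotene and zygotene stages (WT LZ) and at the pachytene and diplotene stages (WT PD) were set against Cnot4-null spermatocytes at the same stages, taken from Cnot4 fl/fl;Stra8-Cre males, with 2 libraries in each of the 4 groups. Stra8-Cre is active in male germ cells, where it removes exon 2 of Cnot4, and whether the WT animals carried a floxed allele or the Cre is not stated. Expression is given as FPKM, a scale of fragments that accounts for transcript length and library size.

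Meiotic recombination starts from programmed DNA double-strand breaks, and a minority of them are repaired as crossovers that hold homologous chromosomes together until they separate. The MSH4 and MSH5 proteins form a clamp that stabilises recombination intermediates, the helicase HFM1, TEX11 and the ligase-like proteins RNF212 and CCNB1IP1 (also called HEI10) help to choose the sites that become crossovers, and MLH3 acts in pachytene as part of the nuclease that resolves them. MSH6 belongs to the complex that recognises mispaired bases after replication.

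Promoters are shown from RefSeq (GRCm38.p6) on the strand of the gene. They are those of Msh5 and Hfm1, among the members that fell between LZ and PD in Cnot4-null cells, and of Mlh3, which rose in WT. Msh5 also fell in WT. Promoters were matched for 7 of 8 members, and not for Tex11. Capitals mark matches on either strand to CNCCTCAG, the motif of the meiotic initiators STRA8 and MEIOSIN, to AACGG or AACTG, the core of MYB sites, and to the E-box CACGTG. The positions are chr17:35046573-35046872 for Msh5, chr5:106925841-106926140 for Hfm1 and chr12:85270550-85270849 for Mlh3, all on the minus strand.
Msh5: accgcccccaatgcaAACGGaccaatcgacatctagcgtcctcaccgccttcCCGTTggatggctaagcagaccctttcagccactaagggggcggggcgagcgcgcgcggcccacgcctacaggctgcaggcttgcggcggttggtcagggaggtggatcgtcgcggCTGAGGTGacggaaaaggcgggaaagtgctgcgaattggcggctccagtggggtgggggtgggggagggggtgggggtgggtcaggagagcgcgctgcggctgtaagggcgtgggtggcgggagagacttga
Hfm1: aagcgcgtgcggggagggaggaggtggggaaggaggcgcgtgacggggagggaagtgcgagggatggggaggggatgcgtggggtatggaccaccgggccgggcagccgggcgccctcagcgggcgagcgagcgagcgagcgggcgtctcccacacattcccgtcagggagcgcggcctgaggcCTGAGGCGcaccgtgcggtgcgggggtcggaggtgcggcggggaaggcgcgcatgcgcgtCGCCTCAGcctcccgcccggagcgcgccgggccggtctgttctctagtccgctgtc
Mlh3: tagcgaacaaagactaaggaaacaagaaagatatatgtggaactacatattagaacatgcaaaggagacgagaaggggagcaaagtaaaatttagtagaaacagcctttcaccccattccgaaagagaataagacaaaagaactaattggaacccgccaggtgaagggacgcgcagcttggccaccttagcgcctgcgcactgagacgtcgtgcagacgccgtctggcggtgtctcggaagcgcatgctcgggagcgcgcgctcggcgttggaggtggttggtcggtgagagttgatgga
The Msh5 window held 1 match to CNCCTCAG and 2 MYB matches, that of Hfm1 2 matches to CNCCTCAG, and that of Mlh3 none of the 3 motifs. Of the 7 promoters, 2 held CNCCTCAG (7.94% of all 32851 promoters), 4 a MYB match (55.1%) and 1, that of Rnf212, an E-box (7.15%). The windows of Msh6 and Ccnb1ip1, which also fell in Cnot4-null cells, held no match to CNCCTCAG and 1 MYB match each. These matches describe the letters in each window and say nothing of binding.

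The hexamer GACAGA, which the study names as the consensus bound by CNOT4, was looked for in the 3′UTR of the annotated transcript with the longest coding sequence. It was found in 1 of the 7 members with an annotated 3′UTR, and in 28.5% of 19485 genes. By the paper's account, transcripts whose degradation depended on CNOT4 showed no enrichment of this hexamer in their 3′UTRs. The match lies at base 864 of the 1093 bases of the Mlh3 3′UTR and is shown in capitals within 30 bases.
Mlh3: gagagacacaaaGACAGAatagagaaagtt
The members' 3′UTRs had a median of 296 bases against 709 over all genes, and that of Mlh3 was the longest of the 7.

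On mm9 the listed members lie on 6 chromosomes, with Msh5 (chr17:35165550-35183690) and Msh6 (chr17:88374390-88390223) far apart on the same one. Tex11 spans chrX:98033987-98255006, or 221020 bases, in up to 30 exons, and Hfm1 spans chr5:107269211-107355340 in up to 40 exons. Ccnb1ip1 is the most compact, with up to 4 exons in 6480 bases at chr14:51408924-51415403. The annotated span of Msh6 overlaps that of Fbxo11, on the opposite strand, by 25 bases, and Fbxo11 is named for this position alone. The genes Msh4 (chr3:153520111-153569102) and Mlh3 (chr12:86575479-86611541) overlap no other protein-coding gene.

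The targeted gene was read over the whole gene, so its value does not report the deleted exon. Cnot4 had 36.0 and 34.9 FPKM in the WT LZ libraries and 43.2 and 34.6 in the Cnot4-null LZ libraries, with 76.6 and 73.1 in WT and 65.9 and 53.5 in Cnot4-null at PD. These levels therefore check none of the genotype labels. The expression files give FPKM without read counts, and the total reads that the paper lists for each library were not used here.

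The Cnot4-null PD libraries stood apart in markers of Leydig cells, the steroid-producing cells outside the tubules. Of the 7 Leydig markers, 3 exceeded 1 FPKM in Cnot4-null PD alone, and the sum of the list reached 10077 and 22282 FPKM in Cnot4-null at PD, 116 and 7.07 in WT at PD and between 9.89 and 19.0 in the LZ libraries. Insl3 was the most abundant of them, at 9669 and 21608 FPKM in Cnot4-null and 104 and 4.90 in WT at this stage, and Lhcgr was listed at 0 in the 4 LZ libraries and in WT PD replicate 2. Peritubular and endothelial markers, of which 4 of 6 exceeded 1 FPKM in any library and Myh11, Des and Cdh5 did so in Cnot4-null PD alone, summed to 49.0 and 242 FPKM in Cnot4-null PD, led by Acta2, and to at most 1.36 in the other libraries. Macrophage markers, with 2 of 7 above 1 FPKM in Cnot4-null PD alone, summed to 27.2 and 116 FPKM in Cnot4-null PD, led by Lyz2, against 3.25 and 2.96 in WT PD and 37.5 in WT LZ replicate 1.

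Germ cell markers also differed at PD, where limma called 41.6% of all genes higher and 11.5% lower in Cnot4-null than in WT. Round spermatid markers (6 of 6 higher in Cnot4-null at PD, 5 after median rescaling) summed to 15804 and 7123 FPKM in Cnot4-null PD, with Prm1 the most abundant, to 417 and 260 in WT PD and to between 708 and 4033 in the LZ libraries. Spermatogonial markers (6 of 7 higher, 4 after quantile normalization and 5 after median rescaling) summed to 251 and 318 FPKM in Cnot4-null PD against 17.0 and 11.4 in WT PD, and to 313 to 488 in the LZ libraries, led by Uchl1. The WT PD libraries were thus the low ones for spermatogonial markers. Sertoli cell markers (1 of 3 tested higher, 0 after either rescaling or without either WT PD library) summed to between 0.647 and 10.7 FPKM, and Amh and Fshr were each listed at 0 in 7 of 8 libraries.

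The labelled stages were visible in the pachytene markers, which summed to 11839 and 10978 FPKM at PD in WT, 5447 and 1884 at PD in Cnot4-null and between 93.9 and 336 in the LZ libraries, led by Ldhc in 7 of 8 libraries. At PD 1 of the 7 was called lower in Cnot4-null (median log2 difference -1.01, against 0.66 over all genes), 2 after quantile normalization (-1.44) and 7 after median rescaling (-2.44), and 0 without either WT PD library or without Cnot4-null PD replicate 2, and 4 without Cnot4-null PD replicate 1. Early prophase markers, led by Sycp3, summed to at least 679 FPKM in all 8, with 4 of 9 higher (41.6% of all genes) and 3 lower (11.5%) at PD (median 0.29 against 0.66 over all genes), 3 and 3 with quantile normalization (-0.073) and 2 and 6 with median rescaling (-1.07). Without either WT PD library 2 were higher and 0 lower, and without Cnot4-null PD replicate 2 again 0 were lower. The part of these other cells in the members' values was not tested. Because the samples are bulk libraries, fewer cells of a kind and less RNA per cell cannot be told apart. By the paper's account, SYCP3 and pH2AX staining bore out the identity and purity of its sorted germ cells.

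**Figure D1:**
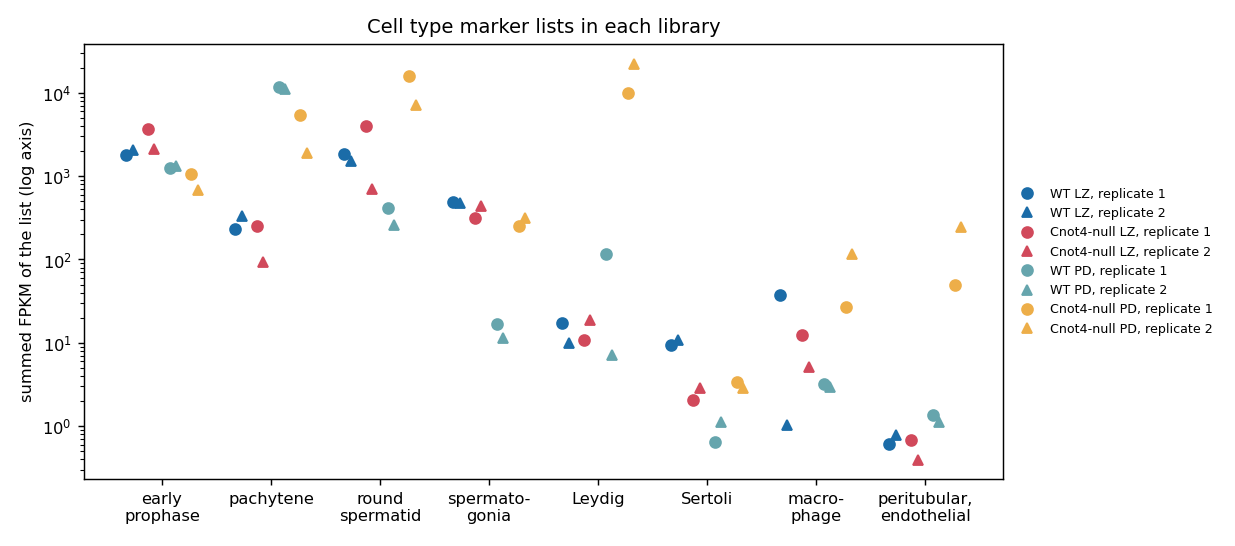
Summed FPKM of each marker list (log axis) in the 8 libraries, with circles for replicate 1 and triangles for replicate 2. The Cnot4-null PD libraries lie at 10077 and 22282 FPKM in the Leydig list, where no other library exceeds 116 FPKM.

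Msh4 and Msh5 encode the partners of the clamp complex. Msh4 had 4.83 and 7.44 FPKM in the WT LZ libraries and 9.32 and 4.05 in the Cnot4-null LZ libraries, then 3.36 and 2.85 in WT and 8.25 and 4.96 in Cnot4-null at PD. The 3 groups other than WT PD overlapped, and both WT PD libraries lay below every other library. From high to low, the means were 6.69 ± 3.73 FPKM (SD, n = 2) for Cnot4-null LZ, 6.6 ± 2.32 for Cnot4-null PD, 6.14 ± 1.85 for WT LZ and 3.11 ± 0.359 for WT PD.

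Msh5 measured 10.9 and 16.6 FPKM in WT and 13.7 and 9.05 in Cnot4-null at LZ, while the PD libraries had 3.17 and 2.28 in WT and 3.80 and 2.91 in Cnot4-null. Both genotypes had the gene high at LZ and low at PD, with no overlap between the stages and overlap between the genotypes within each stage. The means were 13.8 ± 4.05 FPKM (SD, n = 2) for WT LZ, 11.4 ± 3.26 for Cnot4-null LZ, 3.35 ± 0.632 for Cnot4-null PD and 2.72 ± 0.628 for WT PD.

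The ratio of Msh4 to Msh5, both per length and within a library, does not change when a library is multiplied by a constant, and it was chosen after the values were seen. It was 0.444 and 0.448 at LZ in WT, 0.682 and 0.448 at LZ in Cnot4-null, 1.06 and 1.25 at PD in WT and 2.17 and 1.71 at PD in Cnot4-null. All 4 LZ libraries had a lower ratio than any PD library, and both Cnot4-null PD libraries lay above both WT PD libraries.

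Msh6, the mismatch recognition gene, stood at 34.6 and 29.0 FPKM in WT and 36.5 and 32.3 in Cnot4-null at LZ, and at 10.6 and 9.60 FPKM in WT and 22.1 and 11.3 in Cnot4-null at PD. The LZ groups overlapped and lay above both PD groups. Cnot4-null PD, at 16.7 ± 7.65 FPKM (SD, n = 2), and WT PD, at 10.1 ± 0.733, did not overlap, but replicate 2 of Cnot4-null PD lay close to the WT values.

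Mlh3, the nuclease gene, was highest at PD. Its LZ libraries had 3.36 and 3.49 FPKM in WT and 4.24 and 3.69 in Cnot4-null, and its PD libraries had 11.8 and 12.3 in WT and 8.46 and 4.70 in Cnot4-null. The WT PD libraries were the highest, the Cnot4-null PD libraries intermediate and the LZ libraries of both genotypes the lowest. No neighbouring groups overlapped in this order of WT PD (12.1 ± 0.380 FPKM, SD, n = 2), Cnot4-null PD (6.58 ± 2.66), Cnot4-null LZ (3.96 ± 0.386) and WT LZ (3.43 ± 0.0904), although replicate 2 of Cnot4-null PD lay just above a Cnot4-null LZ library.

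Among the pro-crossover factors, Hfm1, the helicase gene, ranged over 19.7 and 32.9 FPKM in WT and 43.1 and 22.8 in Cnot4-null at LZ, with PD values of 13.8 and 14.7 in WT and 12.5 and 11.1 in Cnot4-null. For Ccnb1ip1 the LZ values were 18.8 and 25.6 FPKM in WT and 27.3 and 34.2 in Cnot4-null, and the PD values were 10.7 and 13.0 in WT and 15.5 and 3.04 in Cnot4-null. Within a genotype, both genes were higher in each LZ library than in each PD library. Hfm1 overlapped between the genotypes at LZ and not at PD. Ccnb1ip1 overlapped at PD, where its Cnot4-null libraries lay on either side of the WT libraries and differed from each other more than any other pair of replicates of this gene.

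Tex11, an X-linked gene of crossover formation, had the widest range of the 7. It reached 92.4 and 81.0 FPKM in WT and 102 and 80.5 in Cnot4-null at LZ, against 0.757 and 0.924 in WT and 11.4 and 7.45 in Cnot4-null at PD. The LZ groups overlapped, and the PD groups did not. The mean of WT LZ was 103 times that of WT PD, the mean of Cnot4-null LZ was 9.70 times that of Cnot4-null PD, and the mean of Cnot4-null PD was 11.2 times that of WT PD. The ratios of 103 and 11.2 divide by a low WT PD mean of 0.84 FPKM. On the FPKM + 1 scale used for testing, these fold differences were 47.6 and 5.56.

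**Figure D2:**
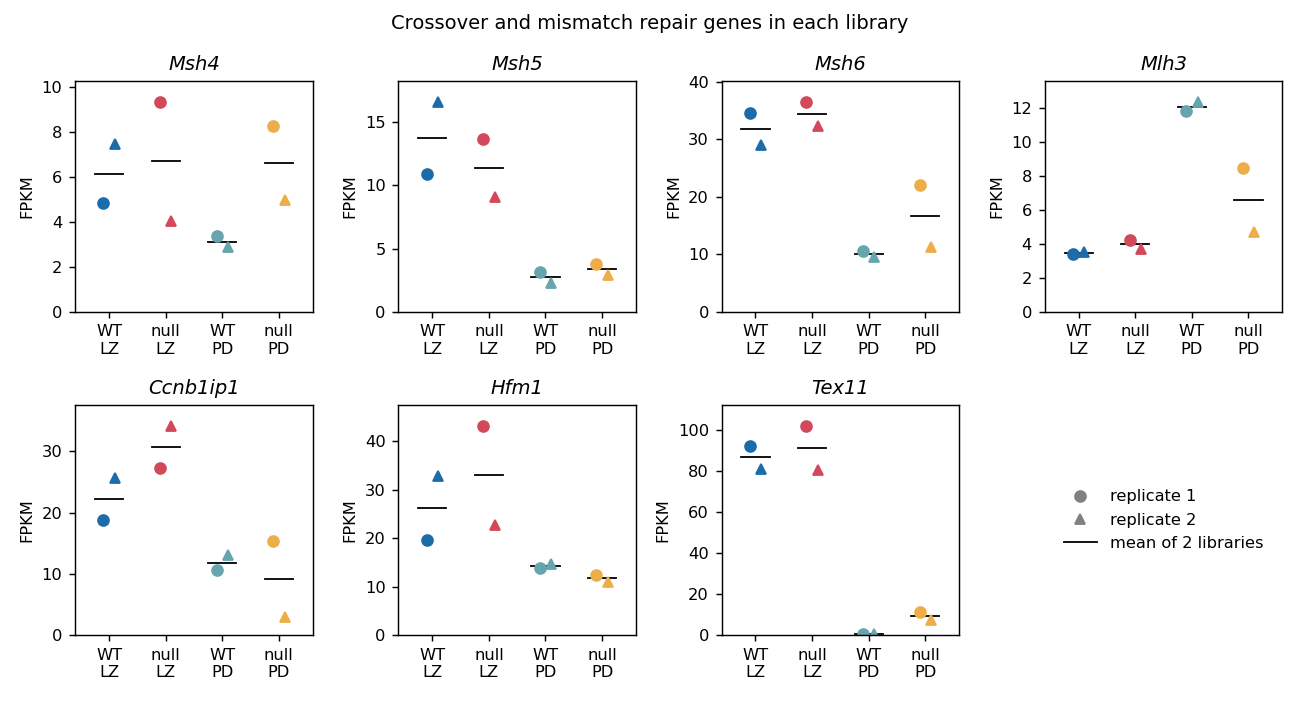
FPKM of each listed member in the 8 libraries, with circles for replicate 1, triangles for replicate 2 and a line at the mean of the 2 libraries. Tex11 runs from 0.757 FPKM in WT PD to 102 in Cnot4-null LZ, and Mlh3 has its highest values in WT PD.

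Replicate 2 of Cnot4-null PD, the library with the larger Leydig sum and the smaller pachytene sum, was below replicate 1 for 7 of the 7 members. The median log2 difference between these replicates was -0.63 over the members and -0.059 over all genes tested, of which 52.7% were lower in replicate 2. In WT LZ 2 of 7 members were lower in replicate 2 (51.2% of all genes, median over the members 0.42), in Cnot4-null LZ 6 of 7 (59.8%, median -0.34) and in WT PD 3 of 7 (51.7%, median 0.059).

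Differences were tested with limma, two-sided, on log2(FPKM + 1) in the 15899 genes that exceeded 1 FPKM in any library, and called at a Benjamini-Hochberg adjusted p under 0.05. All 7 listed members passed this filter. On this scale the change of a weakly expressed gene is understated.

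Between LZ and PD in WT, Mlh3 rose and Tex11, Msh5 and Msh6 fell, with no overlap between the stages. Thus 1 of 7 members was called higher, where 21.6% of all genes were, and 3 of 7 were called lower, where 36.2% of all genes were. The log2 change was -5.57 for Tex11 (SE 0.25, adjusted p = 1.66e-05 by limma), -1.97 for Msh5 (SE 0.32, adjusted p = 0.00136), -1.56 for Msh6 (SE 0.31, adjusted p = 0.00364) and 1.56 for Mlh3 (SE 0.29, adjusted p = 0.00270). Hfm1 (-0.79, adjusted p = 0.0908, and 0.047 after median rescaling), Ccnb1ip1 (-0.84, adjusted p = 0.263) and Msh4 (-0.78, adjusted p = 0.15) did not pass. Msh5 was at -1.27 under both rescalings, and median rescaling put Mlh3 at 2.38 and Msh6 at -0.73. The median was -0.84 over the members and -0.32 over all genes, and -0.53 and -0.063 after quantile normalization. Rescaling each library to the same median moved these to -0.060 and 0.050, raised the share of higher calls from 37.4 to 54.8% and ended the call of Msh6 (adjusted p = 0.0781, and 0.000872 to 0.0781 over all settings). Ccnb1ip1 became called without Cnot4-null PD replicate 1 (adjusted p = 0.0256), without replicate 2 (adjusted p = 0.0246) and with the 4 WT libraries alone (adjusted p = 0.0404), where its adjusted p ran from 0.0246 to 1.0 over all settings.

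Between LZ and PD in Cnot4-null cells, Tex11, Ccnb1ip1, Msh5, Hfm1 and Msh6 fell. These are 5 of 7 members, where 18.2% of all genes were called lower, and 0 of 7 were called higher by limma (5 of 7 had an unadjusted p under 0.05, each of them lower), where 27.8% of all genes were. The log2 change was -3.16 for Tex11 (SE 0.25, adjusted p = 0.000358), -1.95 for Ccnb1ip1 (SE 0.58, adjusted p = 0.0298), -1.49 for Msh5 (SE 0.32, adjusted p = 0.00840), -1.35 for Hfm1 (SE 0.35, adjusted p = 0.0179) and -1.07 for Msh6 (SE 0.31, adjusted p = 0.0262). The values of Mlh3 (0.57, adjusted p = 0.147, and -0.097 after quantile normalization) and Msh4 (0.040, adjusted p = 0.946, -0.61 after quantile normalization and -0.45 after median rescaling) did not pass. The median was -1.35 over the members and 0.19 over all genes. Quantile normalization and median rescaling moved the all-gene median to -0.29 and -0.22 and the share of higher calls from 60.5 to 37.4 and 39.1%, with the same 5 members called. After quantile normalization Tex11 was at -3.82, Ccnb1ip1 at -2.61 and Msh5 at -2.24.

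These calls changed when single libraries were left out, Tex11 excepted, and some of them under other settings. Leaving out a WT library left the log2 changes in Cnot4-null as they were and altered the spread shared by the groups. With no filter Ccnb1ip1, Hfm1 and Msh6 were not called, and with the compared libraries alone 2 members were called. Without Cnot4-null LZ replicate 1 only Tex11 was called, with adjusted p = 0.0605 for Msh5, 0.106 for Hfm1, 0.128 for Msh6 and 0.104 for Ccnb1ip1. Without Cnot4-null LZ replicate 2, WT PD replicate 1 or WT PD replicate 2 the count was 3, with Msh5, Hfm1 and Tex11, and Msh6 was at adjusted p = 0.0859, 0.0550 and 0.0549. Without WT LZ replicate 1 or replicate 2 Ccnb1ip1 was lost (adjusted p = 0.0580 and 0.0578). The change of Ccnb1ip1 was -2.96 without Cnot4-null PD replicate 1 and -0.94 without replicate 2. Hfm1 was lost without Cnot4-null PD replicate 1 (adjusted p = 0.0668) and replicate 2 (adjusted p = 0.0854), and without replicate 2 Mlh3 rose (0.93, adjusted p = 0.0147). Over all settings the adjusted p ran from 0.00186 to 0.0605 for Msh5, 0.00270 to 0.106 for Hfm1, 0.00421 to 0.128 for Msh6, 0.00249 to 0.145 for Ccnb1ip1 and 0.0147 to 0.845 for Mlh3. Msh4 was at -0.48 without Cnot4-null LZ replicate 2 and at -0.28 without Cnot4-null PD replicate 1.

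**Figure D3:**
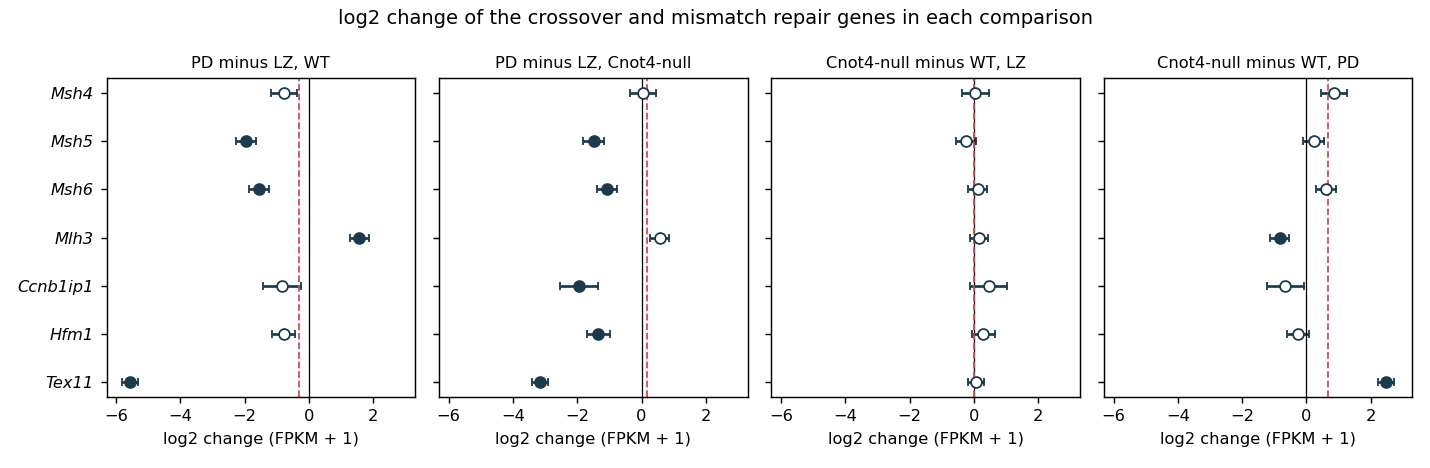
log2 change of each listed member on the FPKM + 1 scale with its standard error in 4 comparisons, filled where limma's adjusted p was under 0.05. The dashed line is the median of all genes tested, at 0.66 in the comparison of the genotypes at PD (-0.10 after quantile normalization and -0.21 after median rescaling), where Tex11 lies at 2.48 and Mlh3 at -0.83.

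Between Cnot4-null and WT at LZ, 0 of 7 members were called by limma (0 at an unadjusted p under 0.05), where 0.0943% of all genes were (15 genes, 1013 at an unadjusted p under 0.05). The log2 differences ran from -0.25 for Msh5 to 0.46 for Ccnb1ip1, with standard errors from 0.25 to 0.58 and an adjusted p of 1.0 for each. Both libraries of Cnot4-null LZ exceeded both of WT LZ for Ccnb1ip1 and Mlh3, and the other members overlapped.

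Between Cnot4-null and WT at PD, Tex11 was higher and Mlh3 was lower, with no overlap of the libraries. So 1 of 7 members was called higher, where 41.6% of all genes were, and 1 of 7 lower, where 11.5% were. The log2 difference was 2.48 for Tex11 (SE 0.25, adjusted p = 0.000410 by limma) and -0.83 for Mlh3 (SE 0.29, adjusted p = 0.0457). Hfm1 was at -0.26 (adjusted p = 0.547) and Ccnb1ip1 at -0.65 (adjusted p = 0.362). Msh4 at 0.86 (adjusted p = 0.115), Msh6 at 0.60 (adjusted p = 0.136) and Msh5 at 0.23 (adjusted p = 0.559) turned negative after quantile normalization (-0.46, -0.15 and -1.22) and after median rescaling (-0.32, -0.73 and -0.86).

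The median over all genes in this comparison was 0.66, against 0.23 over the members. Relative to that median Tex11 lay 1.81 above and Msh4 0.19 above, while the difference from it was -0.062 for Msh6, -0.43 for Msh5, -0.92 for Hfm1, -1.31 for Ccnb1ip1 and -1.49 for Mlh3. The all-gene median itself depended on the filter, at 0.17 with no filter and 0.30 for genes with a mean of at least 5 FPKM, both below the 0.60 of Msh6. With no filter it also lay below Msh5 and below the members' median, each at 0.23. Quantile normalization moved the all-gene median to -0.10, the members' median to -0.97 and the share of higher calls from 78.3 to 41%, and median rescaling moved them to -0.21, -0.86 and 36.7%. Under both, Tex11 stayed higher (1.24 and 1.49) and Mlh3 lower (-1.83 and -2.11), with limma's adjusted p under 0.05. Msh5 was then called lower (adjusted p = 0.0241 and 0.0393), and after median rescaling so were Ccnb1ip1 (-1.92, adjusted p = 0.0202) and Hfm1 (-1.59, adjusted p = 0.00401). Over all settings the adjusted p ran from 0.0241 to 0.932 for Msh5, 0.00670 to 0.622 for Ccnb1ip1 and 0.00401 to 0.785 for Hfm1.

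The call of Tex11 at PD held without either Cnot4-null PD library, at 2.2 without replicate 1 and 2.75 without replicate 2. The difference of Mlh3 was -1.19 without Cnot4-null PD replicate 1 (adjusted p = 0.00573 by limma) and -0.46 without replicate 2 (adjusted p = 0.10). Its call was also lost without WT LZ replicate 1 or 2, Cnot4-null LZ replicate 1 or 2, or WT PD replicate 1 or 2, with adjusted p from 0.0661 to 0.189, and its adjusted p ran from 0.000819 to 0.189 over all settings. Ccnb1ip1 was lower without replicate 1 of Cnot4-null PD (-1.66, adjusted p = 0.00670) and at 0.36 without replicate 2. Msh6 was called higher without replicate 2 (1.06, adjusted p = 0.0104, and 0.0104 to 0.746 over all settings). The call of Mlh3 at PD was lost as well with no filter, with the pseudocount of 0.1, with the replicate block and with the compared libraries alone. With both Cnot4-null PD libraries left out this comparison has no Cnot4-null sample. Leaving out an LZ library changed no log2 difference at PD and altered the spread shared by the groups.

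The genotype difference at PD minus that at LZ tests whether the effect depends on the stage. By limma, 1 of 7 members was called, Tex11, with a positive value, where 26.0% of all genes were called with a positive and 3.97% with a negative value. For Tex11 it was 2.41 (SE 0.36, adjusted p = 0.00423), and 1.21 after quantile normalization (adjusted p = 0.0675, and 0.00211 to 0.0675 over all settings). For Mlh3 it was -0.99 (adjusted p = 0.107), so that its different outcomes of the test at LZ and at PD are not shown to differ from each other with the values as deposited. Mlh3 was called after quantile normalization (-2.01, adjusted p = 0.0340), where it was the only member called, after median rescaling (-2.30, adjusted p = 0.00539) and without Cnot4-null PD replicate 1 (-1.36, adjusted p = 0.0116), with 0.00539 to 0.272 over all settings.

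Other members also passed this test under single settings. Median rescaling called Tex11, Mlh3, Ccnb1ip1 (-2.42, adjusted p = 0.0423) and Hfm1 (-1.93, adjusted p = 0.0134). Leaving out Cnot4-null PD replicate 1 called Tex11, Mlh3 and Ccnb1ip1 (-2.12, adjusted p = 0.00996), and leaving out replicate 2 called Tex11 and Msh6 (0.94, adjusted p = 0.0371). Over all settings the adjusted p ran from 0.00996 to 0.850 for Ccnb1ip1, 0.0134 to 0.878 for Hfm1 and 0.0371 to 0.918 for Msh6. Quantile normalization and median rescaling moved the all-gene median of this measure from 0.64 to -0.13 and -0.30 and the share of positive calls from 86.8 to 44.1 and 29.6%.

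Tex11 was compared with the 648 X-linked genes tested, since the X chromosome is silenced in pachytene spermatocytes. In WT the median log2 change between the stages was -1.77 over X-linked genes and -0.31 over 14544 autosomal genes. Of the X-linked genes 403 were called lower and 6 higher, where 36.2% and 21.6% of all genes were. In Cnot4-null the X-linked median was -0.35, against 0.17 for autosomal genes. Here 214 X-linked genes were called lower and 126 higher, where 18.2% and 27.8% of all genes were. Tex11 fell further than most of its chromosome in both genotypes, with 19 X-linked genes below it in WT and 12 below it in Cnot4-null. On the log2(FPKM + 1) scale a fall is limited by the LZ level, and Tex11 began high. In WT LZ replicate 1 it had 92.4 FPKM, where the X-linked median was 3.69 and 35 X-linked genes lay above Tex11. Its rank therefore does not separate the fall from the starting level.

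At PD the X-linked median of the genotype difference was 1.95, against 0.61 for autosomal genes. There 482 X-linked genes were called higher and 2 lower, where 41.6% and 11.5% of all genes were. All values for X-linked genes are as deposited. The comparison was not repeated with quantile normalization or median rescaling, which put the all-gene median at -0.10 and -0.21 instead of 0.66. The difference of 2.48 for Tex11 was exceeded by 217 of the other X-linked genes. The median X-linked level was 3.69 and 3.81 FPKM in WT and 4.86 and 3.90 in Cnot4-null at LZ, and 0.250 and 0.213 FPKM in WT and 3.82 and 4.65 in Cnot4-null at PD. The Cnot4-null PD libraries thus had X-linked medians near those of LZ, while Tex11 itself lay well below its LZ level in them. The part of the other cell types in these medians was not tested.

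**Figure D4:**
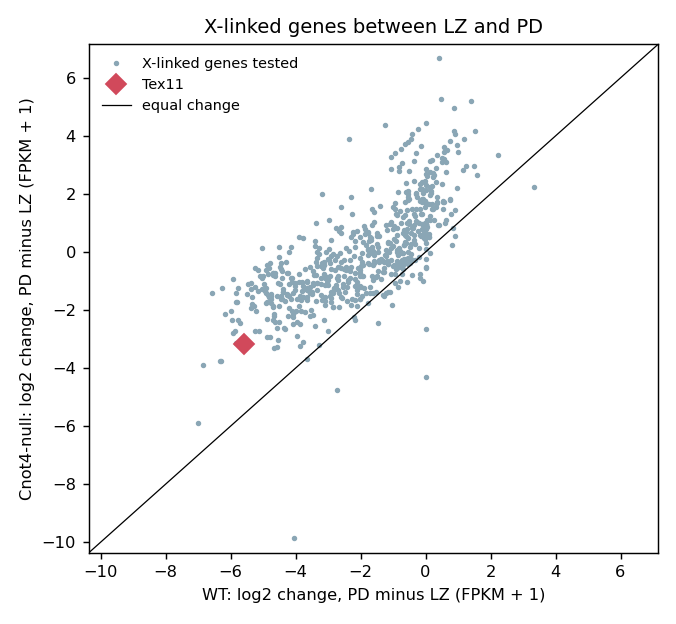
log2 change between LZ and PD on the FPKM + 1 scale in WT (horizontal) and in Cnot4-null (vertical) for 648 X-linked genes, with Tex11 as a diamond at -5.57 and -3.16 and a line of equal change. With the values as deposited, most points lie above the line, and Tex11 is among the lowest in both directions.

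Other genes of these pathways were read from fixed lists. Of 17 other mismatch repair genes, 10 fell and 1 rose between LZ and PD in WT (36.2% and 21.6% of all genes), with 8 and 5 after median rescaling. In Cnot4-null 8 fell and 1 rose (18.2% and 27.8% of all genes), with 10 and 1 after quantile normalization and 12 and 1 after median rescaling. At PD, 9 were higher and 2 lower in Cnot4-null than in WT, with 6 and 2 after quantile normalization and 6 and 8 after median rescaling, where 41.6% of all genes were called higher and 11.5% lower with the values as deposited. The median log2 difference was 0.86 against 0.66 over all genes and 0.23 over the members, and the same median came to 0.21 with quantile normalization and -0.17 with median rescaling. The count lower was 1 without either WT PD library and 6 without Cnot4-null PD replicate 1. Among the most changed were Pold4, a polymerase delta subunit, at 3.20 (SE 0.46, adjusted p = 0.00154 by limma), and Pms1 at 2.73 (SE 0.39, adjusted p = 0.00149). They were at 2.39 and 1.63 after quantile normalization and at 2.40 and 1.84 after median rescaling. Pold4 reached 11.2 and 12.3 FPKM in Cnot4-null PD and was low elsewhere. Its LZ values ranged from 0.415 to 1.66 FPKM, and the WT PD libraries had 0.903 and 0. Pms1, by contrast, ranged from 10.8 to 18.2 FPKM over the LZ libraries. The part of other cell types in the difference of Pold4 was not tested.

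Of 7 other genes of crossover formation, 4 were listed, and Rnf212b, Shoc1 and Spo16 were not. At PD, 1 of the 4 was higher in Cnot4-null (41.6% of all genes) and 2 were lower (11.5%), with a median of -0.20 against 0.66 over all genes (0 and 1 with a median of -0.41 after quantile normalization, 0 and 3 with a median of -1.59 after median rescaling). The change was -1.79 for Cntd1, a cyclin-like regulator of crossover maturation (SE 0.21, adjusted p = 0.000685 by limma), and -0.48 for Cdk2 (SE 0.17, adjusted p = 0.0440). Median rescaling put them at -3.17 and -1.89. Mcmdc2 was at 0.95 (SE 0.25, adjusted p = 0.0170), -0.15 after quantile normalization and -0.28 after median rescaling. Cntd1 had 58.2 and 58.1 FPKM in WT PD, 16.7 and 15.6 in Cnot4-null PD, and between 5.34 and 8.22 in the LZ libraries. Like Mlh3, and like the sum of the pachytene markers, it was highest in WT PD and intermediate in Cnot4-null PD. The call of Mcmdc2 was lost without WT PD replicate 1 (adjusted p = 0.133), WT PD replicate 2 (adjusted p = 0.0536) or Cnot4-null PD replicate 2 (adjusted p = 0.0538) and with the compared libraries alone (adjusted p = 0.0627), with 0.0147 to 0.663 over all settings. That of Cdk2 was lost without any 1 of the LZ libraries (WT or Cnot4-null, replicate 1 or 2) or of the WT PD libraries (replicate 1 or 2), with adjusted p from 0.0568 to 0.180, and also after quantile normalization (adjusted p = 0.142), with the replicate block (0.0540), without a trend in eBayes (0.0793) and with the compared libraries alone (0.0822), with a range of adjusted p from 0.000422 to 0.180 over all settings.

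Of 13 genes that process joint molecules, 5 rose and 4 fell in WT between the stages (21.6% and 36.2% of all genes), with 7 and 3 after median rescaling. In Cnot4-null 3 rose and 4 fell (27.8% and 18.2% of all genes), with 2 and 6 under both rescalings. At PD 4 were higher in Cnot4-null (41.6% of all genes) and 1 lower (11.5%), with a median of -0.12 (0.66 over all genes), against 1 higher and 10 lower after quantile normalization (median -1.15) and 1 and 8 after median rescaling (median -1.43). The count higher was 2 without any 1 of the LZ or WT PD libraries (replicate 1 or 2 of each), and the count lower was 0 without either WT PD library or Cnot4-null PD replicate 2 and 4 without Cnot4-null PD replicate 1. With the replicate block, a mean of at least 5 FPKM or the compared libraries alone, the count higher was also 2. The named genes are Rmi2 at 2.15 (SE 0.22, adjusted p = 0.000432 by limma, and 0.74 after median rescaling), Brip1 at 1.68 (SE 0.28, adjusted p = 0.00285) and Eme1, a subunit of a structure-selective nuclease, at -1.01 (SE 0.29, adjusted p = 0.0226, and -2.37 after median rescaling). Eme1 was not called without Cnot4-null PD replicate 2 (-0.65, adjusted p = 0.0799) or without WT PD replicate 1 or 2 (adjusted p = 0.10 and 0.112), nor with no filter (adjusted p = 0.0556) or the compared libraries alone (adjusted p = 0.0668), with 0.000551 to 0.112 over all settings. Brip1 was not called after quantile normalization (0.49, adjusted p = 0.170) or median rescaling (0.52, adjusted p = 0.106), with 0.00181 to 0.170 over all settings.

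**Figure D5:**
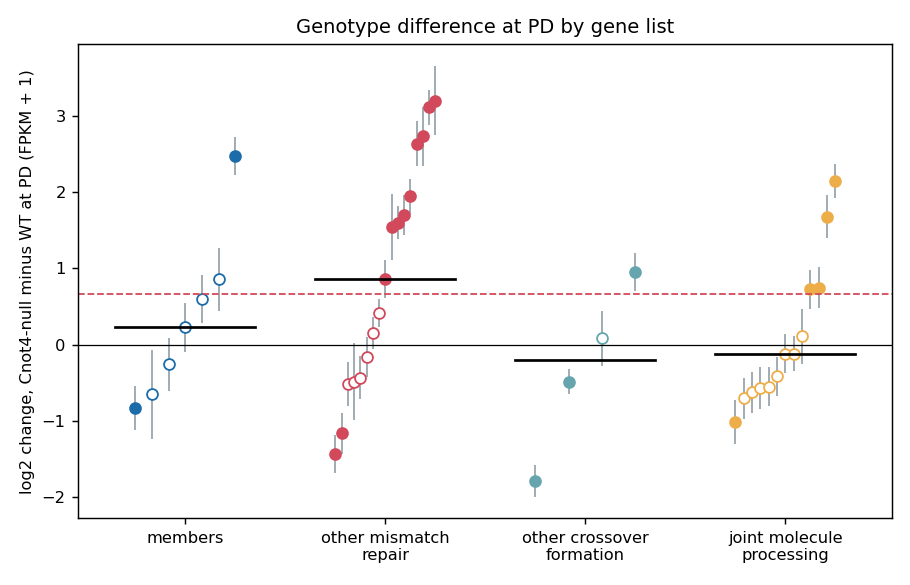
log2 difference between Cnot4-null and WT at PD on the FPKM + 1 scale for each gene of 4 lists, with its standard error, filled where limma's adjusted p was under 0.05. Thick lines are list medians (0.23 for the members, which is -0.97 after quantile normalization and -0.86 after median rescaling, and 0.86 for the other mismatch repair genes, which is -0.17 after median rescaling) and the dashed line is the median of all genes, 0.66.

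The genes most like each member were sought by Pearson's r of log2(FPKM + 1) over the 8 libraries, among 9348 genes with a mean of at least 5 FPKM. For Tex11 they were Zcwpw1, Rasa2 and Slc30a4 (r = 0.999, 0.999 and 0.998). Zcwpw1 had 110 and 95.7 FPKM in WT and 129 and 93.3 in Cnot4-null at LZ, and 4.71 and 4.60 FPKM in WT and 22.7 and 17.0 in Cnot4-null at PD, with the groups in the order of Tex11. For Mlh3 they were Ncbp1, Cox7b2 and Timm8b (r = 0.997 for each), of which Cox7b2 ran from 326 FPKM in a WT LZ library to 4027 in a WT PD library.

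For Msh5 the genes most alike were Arpc1a, Psmd11 and Hnrnpk (r = 0.994, 0.987 and 0.987), and for Msh6 they were Nup43, Rpl27 and Ndufs7 (r = 0.993, 0.992 and 0.992). For Hfm1 they were Rbm46, Iqcb1 and Specc1l (r = 0.979, 0.977 and 0.977), and for Ccnb1ip1 Sdhb, Rnf121 and Tapt1 (r = 0.972, 0.964 and 0.962). Msh4 had the lowest values, with Dhx8, Oraov1 and Rbm4b (r = 0.936, 0.933 and 0.927). No gene was shared between these 7 sets of 3, and with 8 libraries in 4 groups the correlation is set largely by the group levels.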

How the data were processed

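Trimmed reads were aligned by the authors to mm9 (TopHat2 2.1.1 and Cufflinks 2.2.1 in the submitters' processing notes), and reads with a single position gave FPKM over UCSC gene models. The deposited FPKM values, 1 set of 23235 gene symbols per library, were used as they stand. The labels describe a TruSeq preparation and the methods Smart-Seq2 on sorted cells; neither marks strand. Here limma 3.58.1 in R 4.3.3 (eBayes with a trend, 4 groups, 4 residual degrees of freedom) was fitted to log2(FPKM + 1) of 15899 genes exceeding 1 FPKM in any library, and tested on simulated data; p-values were adjusted over all genes of a comparison. An exact test of 2 against 2 libraries cannot go below p = 0.333. Tables and figures were made with Python 3.11.15, numpy 2.4.6, pandas 2.3.3 and matplotlib 3.10.9. The methods call the duplicates biological replicates.

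The members and gene lists were chosen with earlier results of these data known. Members are named with the value in every library; of other lists, at most 3 genes with the largest called difference at PD, and of markers the most abundant; for each member the 3 genes most alike. Fbxo11 falls outside this rule and was chosen after values and annotation were seen. Some genes that the rule names are not reported here. Chromosomes came from GENCODE vM1 (15202 of 15899 symbols matched), Mcmdc2 and Rmi2 were listed under older symbols, and promoters came from RefSeq. Alternatives were no filter, a mean FPKM of at least 5, a pseudocount of 0.1, quantile normalization, rescaling to the same median, eBayes without a trend, the libraries compared alone, a replicate block, each library left out, and a threshold of 0.01. The files give FPKM without counts, and read totals were not used here. No protein sequence was analysed here.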

Additional observations from a re-analysis of the deposited data

Results flagged for a closer look

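With the values as deposited, the effect of genotype on Tex11 differed between the stages, and after quantile normalization this was not called (1.21, adjusted p = 0.0675). The genotype difference at PD minus that at LZ was 2.41 on the log2(FPKM + 1) scale (SE 0.36, limma adjusted p = 0.00423), with Cnot4-null at 11.4 and 7.45 FPKM against 0.757 and 0.924 in WT at PD, and overlapping groups at LZ. Over all settings tried the adjusted p ran from 0.00211 to 0.0675. The median of this measure was 1.93 over 648 X-linked genes and 0.59 over autosomal genes, and 229 X-linked genes exceeded Tex11. The Leydig, round spermatid, spermatogonial and peritubular marker sums of each Cnot4-null PD library exceeded those of WT PD, and their part in the difference was not tested.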

How the results depend on the processing

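Of the 588 alternative values for single members, 508 kept their direction and their side of the threshold. A further 37 kept their direction and lost a call, and 15 kept it and gained one. The other 28 changed direction, whatever their call. Among these 28, Msh5 between the genotypes at PD was also called after both rescalings. Tex11 was called in WT, in Cnot4-null and between the genotypes at PD under every setting, and Msh5 and Mlh3 in WT under every setting. Leaving out a library outside a comparison left that comparison's log2 values unchanged and altered the spread shared by the groups. Otherwise, why a call or a direction changed was not tested.

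The number of members that changed from LZ to PD in Cnot4-null (5) was 2 with no filter, 2 at the threshold of 0.01, 2 with the compared libraries alone, and 1 to 5 with a library left out. The genes called in that comparison were 4286 at the threshold of 0.01, 3955 with the compared libraries alone and 4644 to 8333 with a library left out (4644 and 4828 without Cnot4-null LZ replicate 1 and 2). At LZ, 31 genes were called with no filter, 8 at the threshold of 0.01, 4 with the compared libraries alone and 9 to 25 with a library left out (25 without WT LZ replicate 1, 9 without WT PD replicate 1 or 2). Between the genotypes at PD, the members called (2) were 1 with no filter, 1 with the pseudocount of 0.1, 1 at the threshold of 0.01, 1 with the compared libraries alone, 5 after median rescaling and 1 to 3 with a library left out, and the genes called were 5219 with a mean of at least 5 FPKM, 4811 at the threshold of 0.01 and 4057 to 9956 with a library left out (4341 and 4057 without WT PD replicate 1 and 2). For the stage dependence, 4 members and 7313 genes were called after median rescaling, 1709 genes at the threshold of 0.01, and 1 to 3 members and 1656 to 7929 genes with a library left out (7929 without Cnot4-null PD replicate 1, and 1656 to 3151 without any 1 of the LZ or WT PD libraries).

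Direction changed in these log2 values. After quantile normalization Msh4 was at -0.61 and Mlh3 at -0.10 from LZ to PD in Cnot4-null, Msh4, Msh5 and Msh6 were at -0.46, -1.22 and -0.15 between the genotypes at PD and at -0.53, -0.97 and -0.28 in stage dependence, and Mcmdc2 was at -0.15 at PD. After median rescaling Hfm1 was at 0.047 in WT, Msh4 at -0.45 in Cnot4-null, Msh4, Msh5 and Msh6 at -0.32, -0.86 and -0.73 at PD and at -0.39, -0.64 and -0.88 in stage dependence, and Mcmdc2 at -0.28 at PD. With a library left out, Msh4 ran from -0.48 to 0.56 in Cnot4-null, Ccnb1ip1 from -1.66 to 0.36 at PD, and at LZ Msh4 from -0.47 to 0.56, Msh5 from -0.54 to 0.030, Msh6 from -0.011 to 0.24, Hfm1 from -0.15 to 0.74 and Tex11 from -0.10 to 0.24; a group left with 1 library was assumed to vary like the others.

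With the replicate number as a replicate block, 1 member was called between the genotypes at PD (Mlh3 at adjusted p = 0.0544 by limma, and 0.000819 to 0.189 over all settings), and the block changed no other call of a member. Over all genes, the differences between replicates 1 and 2 correlated across groups at -0.0651 to 0.194. Precision is limited by 2 libraries a group.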
